A study of Mus musculus with 28 samples.

Results

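The effect of a methionine- and choline-deficient diet on the liver was compared, gene by gene, with the effect of the STAM protocol at 4 weeks of age. Each effect is a difference in log2 CPM, the log2 of a gene's reads scaled to a common library total, within its own study. The quantity described throughout is the MCD effect (MCD minus CD) minus the 4-week STAM effect (4wk_STAM minus 4wk_Ctrl), called the difference of effects. It used 18 of the 28 deposited libraries and the 14962 of 20416 genes whose mean level lay above the 25th percentile in both tables. CD and MCD are 4 livers each of male C57BL/6 mice fed a matched low-fat control diet or the deficient diet. The titles of these samples give 4 weeks and another label gives 5 weeks, and the age of the mice is not stated. 4wk_STAM are 5 livers of male C57BL/6 mice injected with streptozotocin 2 days after birth, and 4wk_Ctrl are 5 livers of mice on a control diet. High-fat feeding starts from week 4 in this protocol, so how long the 4-week livers had been exposed to it is not given. All groups are male and of the same strain. Model, study, table, diet and age differ together between the arms and cannot be told apart. Whether libraries come from separate mice is not stated in the labels. The p-values therefore refer to the spread among these samples alone, part or all of which may be technical.

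Both treatments are used as models of non-alcoholic steatohepatitis, in which fat storage, inflammation and scarring of the liver occur together. Methionine and choline are needed to make phosphatidylcholine, which coats the lipoprotein particles that carry fat out of the liver, and methionine also feeds methylation and glutathione synthesis. Streptozotocin kills the beta cells of the pancreas, which make insulin. The liver of male mice is known for a set of genes, among them the major urinary proteins, that depend on the pulsed secretion of growth hormone after puberty and are low in young and in female animals.

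The 18 libraries held 16.2 M to 25.9 M recovered reads, and 3 reads in a library corresponded to at most 0.200 CPM. Hepatocyte markers were high throughout, with a summed level over 15 genes of 100984 to 197487 CPM across the 18 libraries. In 4wk_Ctrl replicate 1, 356 of 9887 well-expressed genes (3.60%) lay more than 2-fold from the mean of the other libraries of its group, against 0.273% to 1.22% in the other 17 libraries. Results that rest on this library are given with and without it. Directions are relative to the authors' scaling. The median difference over all genes was 0.02 on the log2 scale, and it was 0.36 when libraries were scaled by total reads.

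With limma and Benjamini-Hochberg adjustment, the 2 effects differed for 3906 of 14962 genes (26.1%). The MCD effect was the higher for 1754 (11.7%) and the lower for 2152 (14.4%), and 817 and 779 of these had a log2 difference of 1 or more in size. Without 4wk_Ctrl replicate 1, 4469 genes were called (29.9%), of which 3755 were shared with the 3906. Among called genes the share with the higher MCD effect was 44.9% as deposited, 82.2% with total-read scaling and 50.3% with quantile normalization, so the balance of directions depends on the scaling. In the same fit MCD raised 3524 genes (23.6%) and lowered 3284 (21.9%), whereas STAM raised 977 (6.53%) and lowered 434 (2.9%). The median size of a gene's effect was 0.44 for MCD (median SE 0.16) and 0.18 for 4-week STAM (median SE 0.15).

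**Figure D1:**
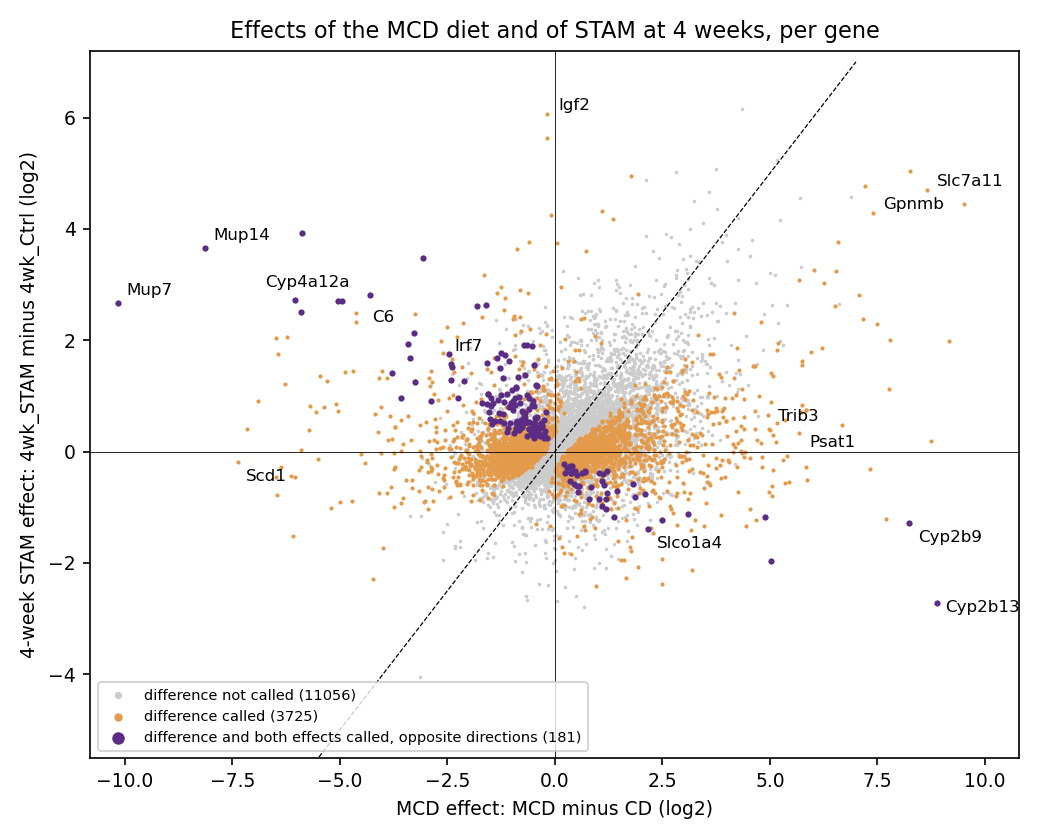
Each point is 1 of the 14962 genes, with the MCD effect on the x axis and the 4-week STAM effect on the y axis, both in log2 units, and the dashed line marks equal effects. Called differences (3725 in orange, 181 in purple) spread mainly along the x axis, and the 181 purple genes were called in opposite directions in the 2 models.

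Most called differences were of genes called in the MCD arm and not in the STAM arm. Of the 1754 genes with the higher MCD effect, 1428 rose with MCD and were not called with STAM, 127 rose in both arms and more with MCD, 62 were not called with MCD and fell with STAM, and 43 rose with MCD and fell with STAM. Among the 2152 genes with the lower MCD effect, 1743 fell with MCD alone, 85 fell in both and more with MCD, 118 rose with STAM without a call in MCD, and 138 fell with MCD and rose with STAM. A further 586 genes were called in the same direction in both arms with no call in the difference. Of all 808 called in the same direction, 177 had a 95% interval of the difference within -0.58 to 0.58. Just 1 of these changed by at least 1 in each arm: 5830473C10Rik (NM_001252661, chromosome 5, 90561209 to 90597906, mm10), which fell by 1.05 with MCD and by 1.01 with STAM. Its difference was -0.04 (95% interval -0.41 to 0.34).

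**Figure D2:**
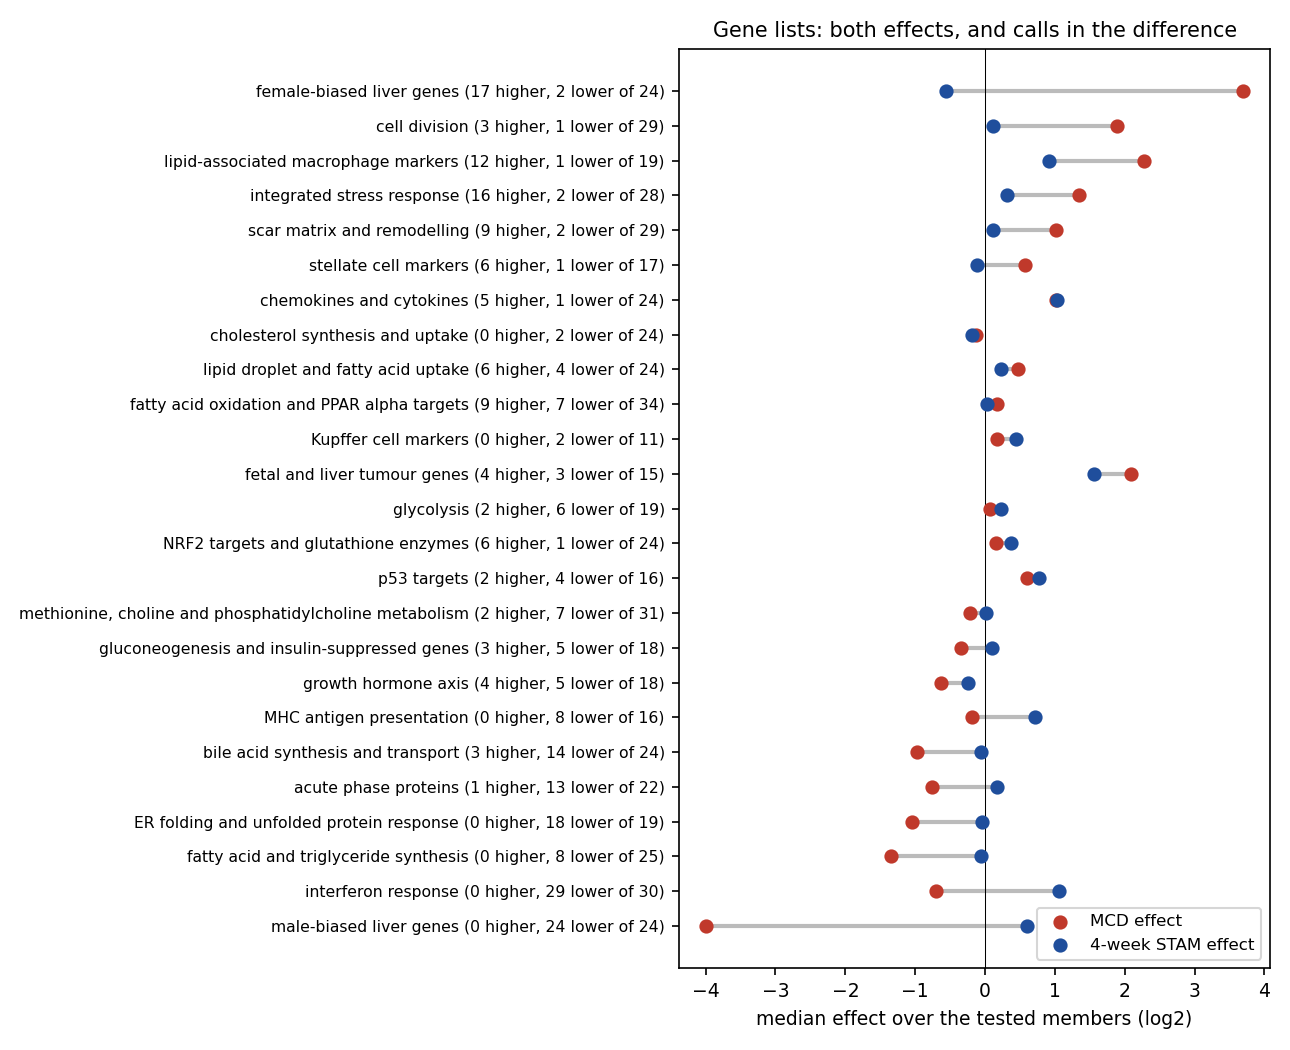
Median effect over the tested members of each gene list (log2), with the MCD effect in red and the 4-week STAM effect in blue. The counts beside each name are members with a called difference, and the male-biased, interferon and female-biased lists have medians on opposite sides of 0.

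Genes of the interferon response were opposed in the 2 models. These genes are switched on when type I interferon binds its receptor on the cell surface. All 30 listed genes were tested, and 29 had the lower MCD effect, with a median difference of -1.55 against 0.02 over all genes. STAM raised 29 of them (median 1.07) and lowered none. MCD lowered 21 (median -0.71) and raised 1, Rsad2, an antiviral enzyme, by 0.55. The difference was also called lower for 27 with total-read scaling and for 28 with quantile normalization, but the number lowered by MCD was 12 with total-read scaling and 20 with quantile normalization. Irf7 (NM_001252601, chromosome 7, 141263183 to 141266424), a transcription factor that amplifies interferon production, stood at 6.49, 6.33, 6.33 and 6.46 log2 CPM in the CD livers and at 5.16, 4.84, 4.90 and 5.59 in the MCD livers. In the 4wk_Ctrl livers it was 4.71, 4.83, 5.16, 5.07 and 5.06, and in the 4wk_STAM livers 6.41, 6.54, 6.42, 6.51 and 6.49. The groups of neither study overlapped, and they were ordered oppositely. Irf7 fell by 1.28 with MCD and rose by 1.51 with STAM, a difference of -2.79 (SE 0.17, limma adjusted p = 9.25e-10).

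Both effects were called, in opposite directions, for 20 of the 30 genes. Oas1a (NM_145211, chromosome 5, 120896257 to 120907525), a 2'-5' oligoadenylate synthetase that starts RNA decay, stood at 3.91, 3.46, 3.78 and 3.79 log2 CPM in CD and at 3.13, 2.64, 2.99 and 3.33 in MCD. It was 1.67, 1.72, 2.18, 2.46 and 2.52 in 4wk_Ctrl and 3.90, 4.13, 4.06, 3.91 and 4.12 in 4wk_STAM, again with no overlap within either study. The difference was -2.63 (SE 0.25, limma adjusted p = 1.65e-07). Ifi27, an interferon-induced membrane protein, had the lowest difference of the list at -3.04, from a fall of 1.26 with MCD and a rise of 1.78 with STAM. Ifi44 differed by -2.89 (fall of 1.16, rise of 1.73). Gbp2, a guanylate-binding protein, was the member without a call (difference -0.43). At 10 weeks of age the STAM effect on Irf7 was 0.88 (limma adjusted p = 0.000564) and on Oas1a 1.5 (limma adjusted p = 4.75e-05), each from its own libraries and not tested against the others.

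Its promoters were searched for the interferon-stimulated response element, the promoter site through which interferon acts, written as GAAA, any pair of bases, GAAA, on either strand. Windows ran from 250 bases before to 50 after the start of each RefSeq transcript on GRCm38.p6. Of the 21 listed genes in that table, 12 (57.1%) held a match, against 3.99% of 27025 genes. Irf7 and Ifi44 had none in this window. The promoter of Oas1a (chr5:120907476-120907775, minus strand) is shown since it has the lowest difference among matched genes, with 2 overlapping matches in capitals, 20 to 5 bases before the start.
Oas1a: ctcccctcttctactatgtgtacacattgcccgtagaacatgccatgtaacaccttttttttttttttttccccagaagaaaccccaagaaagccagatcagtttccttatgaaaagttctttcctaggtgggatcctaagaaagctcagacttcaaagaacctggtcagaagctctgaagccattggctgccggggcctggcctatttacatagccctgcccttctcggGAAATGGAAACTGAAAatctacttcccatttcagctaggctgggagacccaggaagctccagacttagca

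**Figure D3:**
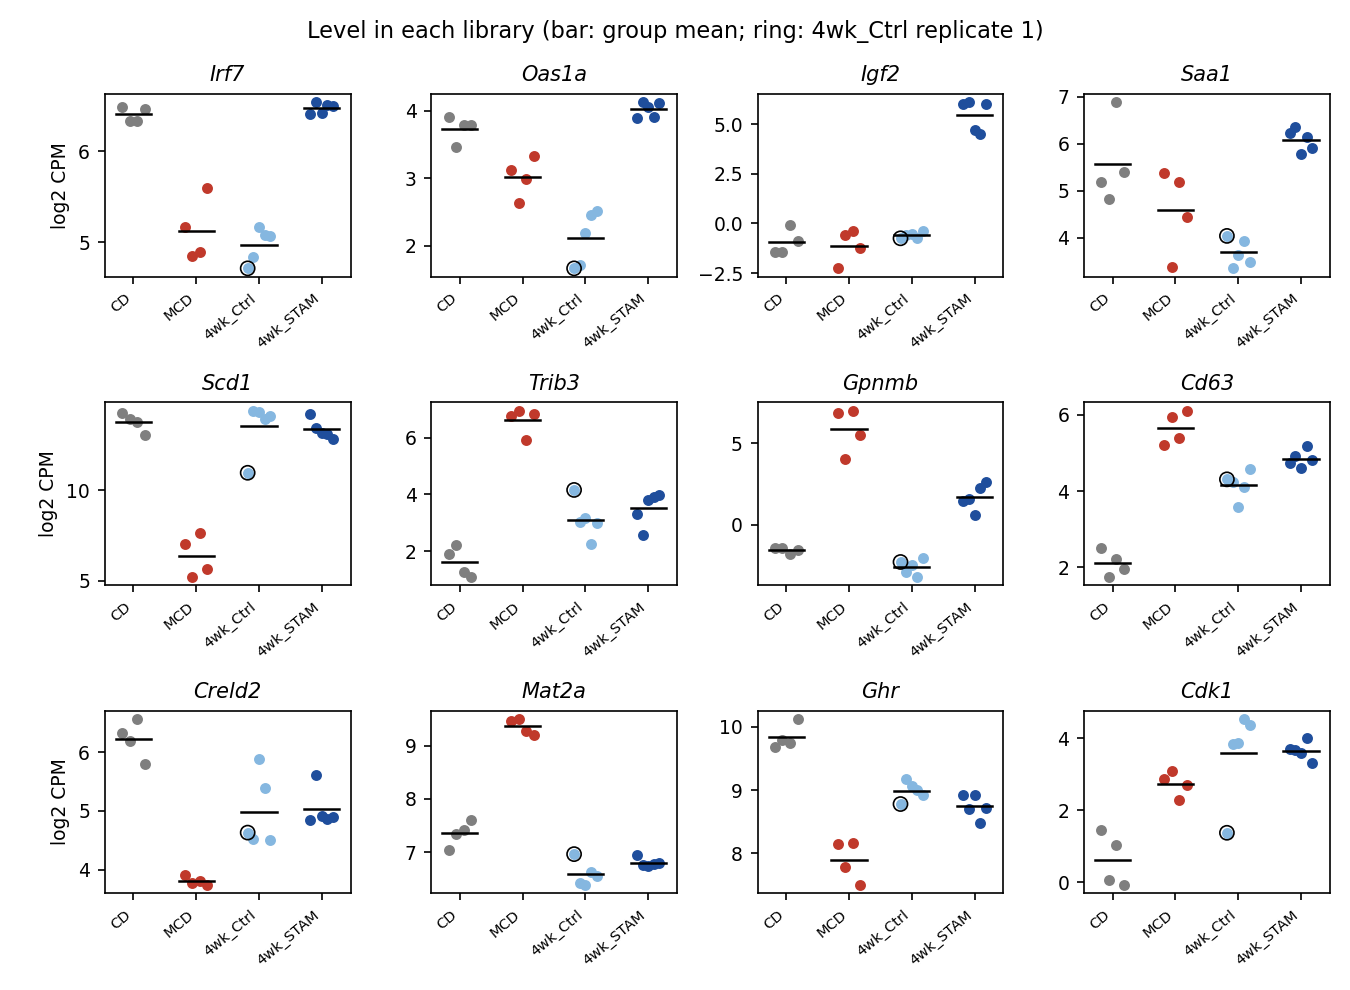
Level of 12 genes in each library (log2 CPM, 1 point a library, bar at the group mean, ring on 4wk_Ctrl replicate 1). Irf7 and Oas1a fall from CD to MCD and rise from 4wk_Ctrl to 4wk_STAM, Igf2 is high in the 4wk_STAM livers alone, and Scd1 and Cdk1 show the distance of the ringed library from its group.

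Interferon-inducible genes that load peptides on MHC class I were opposed as well, whereas class II genes were not. In the list of antigen presentation, 8 of 16 genes had the lower MCD effect and none the higher (median -0.53), and 7 of them were called in opposite directions. Psmb8 (NM_010724), a subunit of the immunoproteasome that cuts peptides for presentation, stood at 4.82, 4.70, 4.87 and 4.74 log2 CPM in CD and 3.98, 3.37, 3.97 and 3.70 in MCD. It was 3.65, 4.24, 3.83, 4.30 and 4.02 in 4wk_Ctrl and 4.78, 4.94, 4.99, 4.86 and 4.79 in 4wk_STAM. It differed by -1.89 (SE 0.19, limma adjusted p = 3.03e-07). The peptide transporter Tap1 differed by -1.79, the immunoproteasome subunit Psmb9 by -1.70 and B2m, the light chain of class I, by -1.33. The class II genes H2-Aa, H2-Ab1 and H2-Eb1 rose in both arms, H2-Eb1 by 0.90 with MCD and 1.27 with STAM (difference -0.37, 95% interval -1.10 to 0.36). With total-read scaling 7 genes of the list had the lower MCD effect, and MCD lowered 4 of the 16 in place of 8. The summed level of 13 T and NK cell genes was 5.63 to 8.84 CPM in CD, 6.64 to 9.65 in MCD, 3.80 to 7.33 in 4wk_Ctrl and 5.86 to 8.79 in 4wk_STAM, and 0 of the 13 had a called difference. In bulk liver, fewer cells of a type and less RNA per cell cannot be told apart.

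Sex-biased liver genes had the largest median differences of the lists described here. Of 27 listed male-biased genes, 24 passed the level filter, and all 24 had the lower MCD effect with each scaling, with a median difference of -5.14. MCD lowered all 24 (median -3.99), and STAM raised 7 and lowered 0 (median 0.60). Of 24 tested female-biased genes, 17 had the higher MCD effect and 2 the lower (median 4.19), with 19 raised by MCD. STAM raised 3 and lowered 4 (median -0.56).

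Mup7 (NM_001134675, chromosome 4, 60066469 to 60070475), a major urinary protein that carries pheromones, had the lowest difference among the better-expressed genes. It stood at 10.95, 10.29, 11.32 and 12.10 log2 CPM in CD and at 1.80, 0.24, 1.37 and 0.60 in MCD. The 4wk_Ctrl livers were already low, at 2.12, 1.64, 0.28, 1.69 and 0.97, and the 4wk_STAM livers reached 4.10, 2.47, 5.07, 3.47 and 4.89. The difference was -12.83 (SE 0.78, limma adjusted p = 2.13e-08). Reads of Mup, Cyp2, Cyp3a, Cyp4a and Sult genes may be split among near-identical copies, so values of single members are uncertain. Mup14 and Mup1 differed by -11.79 and -8.41 and rose with STAM by 3.65 and 2.51. Among other male-biased genes, Cyp4a12a (NM_177406), an omega-hydroxylase of fatty acids, fell by 4.31 with MCD and rose by 2.82 with STAM. The related Cyp4a12b fell by 3.06 and rose by 3.48. C6 (NM_016704), a component of the complement pore, fell by 3.27 and rose by 2.13, a difference of -5.40 (SE 0.37, limma adjusted p = 3.4e-08). The STAM effect at 10 weeks was 0.33 for Mup7 (limma adjusted p = 0.73), -0.05 for Cyp4a12a (0.886) and -0.17 for C6 (0.716).

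Female-biased genes differed in the other direction. Cyp2b9 (NM_010000, chromosome 7, from 26173409 to 26210660) encodes a female-biased member of the cytochrome P450 family. It stood at 0.62, 1.64, -0.69 and -0.71 log2 CPM in CD and at 8.67, 8.40, 8.71 and 8.05 in MCD, 303-fold higher. In 4wk_Ctrl it was already at 9.08, 8.67, 8.82, 8.61 and 8.93, and in 4wk_STAM at 7.61, 8.15, 7.44, 7.54 and 6.94. The difference was 9.53 (SE 0.55, limma adjusted p = 1.37e-08). Its fall of 1.29 with STAM (limma adjusted p = 0.0399) was not called without 4wk_Ctrl replicate 1 (limma adjusted p = 0.076). Cyp2b13, a close relative, had 3 reads over all CD livers and 1655 over the MCD livers, a ratio of 381 (95% counting interval 130 to 1847), and fell by 2.73 with STAM. Cyp3a44 rose in both arms, by 9.17 and 1.99. The exceptions were Ntrk2, a neurotrophin receptor, which rose by 2.85 with STAM (difference -4.21), and Cyp2c69, which fell by 2.44 with MCD (difference -1.63).

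**Figure D4:**
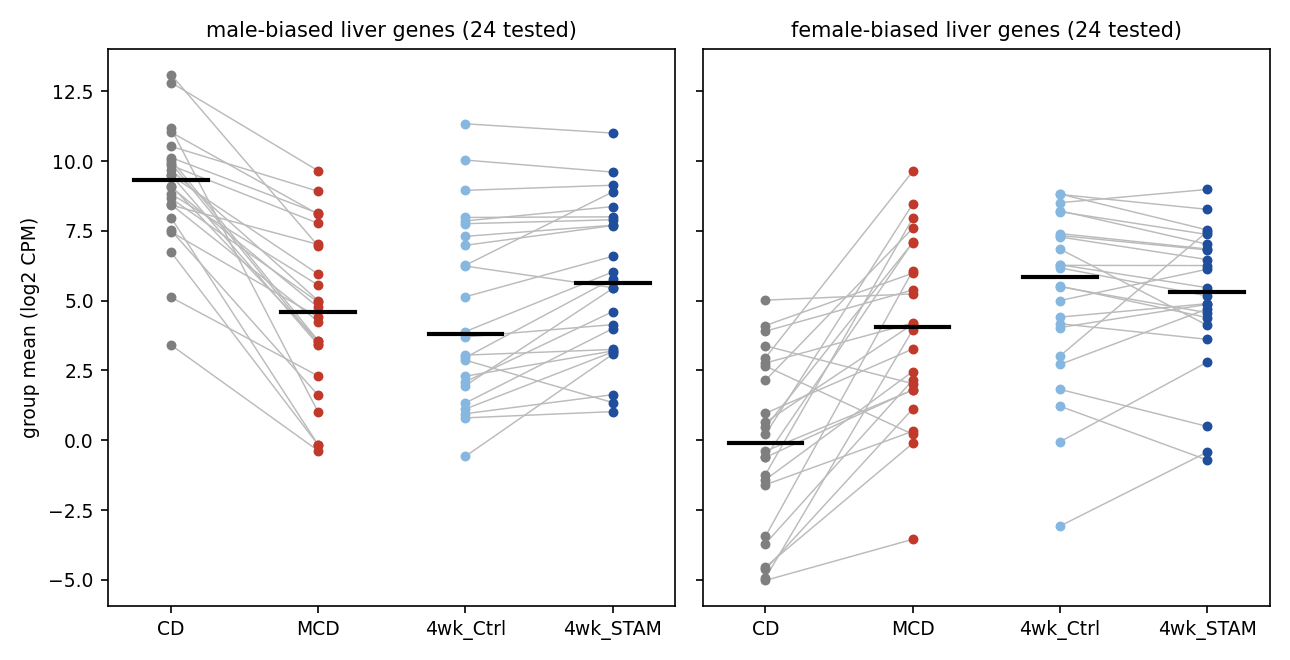
Group means (log2 CPM) of the 24 tested male-biased and 24 tested female-biased genes, 1 line a gene within each study, black bars at the medians. Male-biased genes are high in CD alone (median 9.31) and female-biased genes are low in CD alone (median -0.09), and the 2 studies were scaled separately.

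The 2 sets of controls stood at different levels for these genes. The median 4wk_Ctrl mean lay 4.35 log2 units below CD over the male-biased genes and 5.46 above it over the female-biased genes. For 20 of the 24 male-biased and 17 of the 20 female-biased genes called with MCD, the 4wk_Ctrl mean was nearer to MCD than to CD, against 2902 of all 6808 genes called with MCD (42.6%). The same count was 20 of 22 for interferon genes, 15 of 18 for genes of folding in the endoplasmic reticulum and 10 of 12 for cell division. The tables were scaled separately, and these levels share the CD and 4wk_Ctrl libraries with the difference of effects, so they describe it and are no test.

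As deposited, genes of the growth hormone axis, through which the pituitary sets these sex differences, were lowered more often than raised in both arms. MCD lowered 9 of 18 (21.9% of all genes) and raised 2, and STAM lowered 6 (2.9% of all genes) and raised 0. With total-read scaling MCD lowered 6 and raised 6, and with quantile normalization it lowered 8 and raised 2. STAM lowered 5 and raised 0 with either. The list median was 5.77 to 6.14 log2 CPM in CD and 4.85 to 5.05 in MCD, and 6.48 to 6.72 in 4wk_Ctrl and 5.61 to 6.06 in 4wk_STAM, with no overlap within a study. In the difference, 4 had the higher and 5 the lower MCD effect, and with total-read scaling 6 and 3. Ghr (NM_010284), the growth hormone receptor, stood at 9.69, 9.80, 9.75 and 10.13 log2 CPM in CD and 8.14, 7.78, 8.15 and 7.49 in MCD, against 8.78, 9.18, 9.07, 8.99 and 8.92 in 4wk_Ctrl and 8.93, 8.71, 8.92, 8.47 and 8.71 in 4wk_STAM. It fell by 1.95 with MCD and differed by -1.71 (SE 0.19, limma adjusted p = 1.41e-06). Igf1, the growth factor made by liver in response, fell by 1.40 with MCD and was at -0.08 with STAM (difference -1.32). Bcl6, a repressor of female-biased genes, differed by -2.61. Igfbp1, an IGF-binding protein normally suppressed by insulin, rose by 2.54 with MCD and stood at 0.19 with STAM (difference 2.34). Cish, an inhibitor of growth hormone signalling, fell in both arms, by 2.33 and 1.73 (difference -0.59, 95% interval -1.70 to 0.51).

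Genes of fatty acid synthesis mostly fell with MCD and, as deposited with all libraries, gave no call with 4-week STAM. In the list of 25, 8 had the lower MCD effect and 0 the higher (median -1.30), against 26.1% called over all genes. MCD lowered 16 (21.9% of all genes) and STAM called 0, with a median STAM effect of -0.06. Without 4wk_Ctrl replicate 1, 10 were lower (median -0.93) and STAM lowered 1. With total-read scaling 8 were lower and 1 higher, and STAM raised 2. Scd1 (NM_009127, chromosome 19, 44394450 to 44407709), the desaturase that makes oleate, stood at 14.27, 13.91, 13.78 and 13.05 log2 CPM in CD and at 7.0, 5.21, 7.64 and 5.64 in MCD. In 4wk_Ctrl it was 10.96 in replicate 1 and 14.40, 14.33, 13.95 and 14.10 in the others, and in 4wk_STAM 14.23, 13.46, 13.15, 13.09 and 12.85. The difference was -7.19 (SE 0.94, limma adjusted p = 4.76e-05) and -6.54 without replicate 1. Elovl3, an elongase that is also male-biased, differed by -8.53, Thrsp, a protein that promotes lipogenesis, by -4.46, and Pnpla3, a droplet lipase, by -3.84. Fasn, the fatty acid synthase, differed by -1.71 with a 95% interval of -3.20 to -0.22 and was not called (limma adjusted p = 0.0876).

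Uptake and storage genes divided. Of 24 genes, 6 had the higher and 4 the lower MCD effect, against 26.1% called in either direction over all genes. Lpl, the lipoprotein lipase, rose by 2.29 with MCD and differed by 2.97 (SE 0.33, limma adjusted p = 4.33e-06). Its STAM effect was -0.69 with all libraries and -0.90, then called, without 4wk_Ctrl replicate 1. Pparg, the adipogenic receptor, rose by 3.30 with MCD and was at 0.08 with STAM. Cidec, which fuses lipid droplets, rose in both arms, by 5.67 and 3.08. Its difference of 2.59 was called (limma adjusted p = 0.0232) but not with voom weights on the recovered reads (limma adjusted p = 0.240). Cd36, a fatty acid importer, rose by 3.18 and 1.60, a difference of 1.57 (SE 0.13, limma adjusted p = 2.93e-08). The fatty acid carriers Fabp1 and Slc27a2 had the lower MCD effect, by 1.89 and 1.14 in size, and both fell with MCD.

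Targets of PPAR alpha, the receptor that senses fatty acids, also divided. In that list 9 of 34 had the higher and 7 the lower MCD effect (median 0.09), against 26.1% called over all genes. With total-read scaling the counts were 15 and 3, and with quantile normalization 12 and 2. The higher members included omega-hydroxylases and acyl-CoA thioesterases. Cyp4a14 stood at 6.25, 7.96, 5.03 and 3.90 log2 CPM in CD and at 10.91, 11.26, 11.13 and 11.05 in MCD. It was 11.38, 10.04, 10.35, 10.12 and 10.46 in 4wk_Ctrl and 10.02, 10.31, 10.23, 10.82 and 10.21 in 4wk_STAM, where the groups overlapped, and the difference was 5.45 (SE 0.81, limma adjusted p = 0.000155). Acot3 and Cyp4a31 differed by 4.44 and 3.99. The omega-hydroxylases split, since Cyp4a12a, described above, is in this list with a difference of -7.13. Ppara itself was also lower (-0.74).

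For bile acids, 14 of 24 genes had the lower MCD effect and 3 the higher (median -0.78), with 14 lowered by MCD and 1 by STAM. With total-read scaling the counts were 11 lower and 5 higher, and with quantile normalization 10 and 6. Synthesis enzymes were on the low side. Cyp7b1 of the alternative pathway, which is also male-biased, differed by -4.16 (SE 0.40, limma adjusted p = 1.38e-06). Cyp8b1, which makes cholic acid, fell by 1.56 with MCD and rose by 1.03 with STAM (difference -2.60). That rise was not called without 4wk_Ctrl replicate 1 (limma adjusted p = 0.0637). Cyp7a1, the rate-limiting enzyme, rose by 2.33 with MCD and was at 0.91 with STAM, and its difference of 1.42 was not called (95% interval -0.57 to 3.41). Among transporters, the importer Slco1a1 differed by -5.69 and the importer Slc10a1 by -2.33, while the exporter Abcc4 rose in both arms, by 3.87 and 1.35.

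Slco1a4 (NM_030687, chromosome 6, 141805440 to 141856171), an importer of organic anions and bile acids, was among the genes raised by MCD and lowered by STAM. It stood at 4.79, 5.38, 5.18 and 4.97 log2 CPM in CD and 7.11, 7.57, 7.26 and 7.05 in MCD, and at 7.41, 7.91, 7.97, 7.52 and 7.71 in 4wk_Ctrl and 6.36, 6.52, 6.42, 6.34 and 5.94 in 4wk_STAM. No groups overlapped within a study. It rose by 2.17 and fell by 1.39, a difference of 3.56 (SE 0.20, limma adjusted p = 5.33e-10), and its STAM effect at 10 weeks was -1.64 (limma adjusted p = 0.00563). Ildr2, a membrane protein of the immunoglobulin family, rose by 2.48 and fell by 1.23. Fmo4, a flavin monooxygenase, rose by 1.2 and fell by 0.74. Abcd2, a peroxisomal fatty acid transporter, and Steap2, a metal reductase, rose by 1.87 and 2.10 with MCD. Their falls of 0.81 and 0.76 with STAM were not called without 4wk_Ctrl replicate 1 (limma adjusted p = 0.079 and 0.072). The number of such genes, 43, ranged from 21 to 66 when single libraries were left out, with 66 without 4wk_Ctrl replicate 1, 28 without 4wk_Ctrl replicate 2, 27 without 4wk_STAM replicate 1, 23 without 4wk_Ctrl replicate 5 and 21 without 4wk_STAM replicate 5.

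Genes of the integrated stress response, which ATF4 turns on when amino acids are short, mostly had the higher MCD effect. Of 28 genes, 16 had the higher effect with MCD and 2 the lower (median 0.95). MCD raised 21 (23.6% of all genes) and STAM 7 (6.53% of all genes). Trib3 (NM_175093, chromosome 2, 152337425 to 152344060), a pseudokinase that restrains ATF4, stood at 1.89, 2.24, 1.29 and 1.10 log2 CPM in CD and 6.75, 6.96, 5.93 and 6.82 in MCD. It was 4.16, 3.03, 3.15, 2.24 and 3.0 in 4wk_Ctrl and 3.32, 2.57, 3.81, 3.91 and 3.97 in 4wk_STAM, which overlapped. The difference was 4.59 (SE 0.52, limma adjusted p = 8.34e-06). Psat1, of serine synthesis, differed by 5.33, the stress regulator Nupr1 by 5.09 and Aldh1l2, a mitochondrial folate enzyme, by 4.78. Asns, asparagine synthetase, rose in both arms, by 4.66 and 1.53, a difference of 3.13. Atf3, a stress-induced transcription factor, did so by 4.62 and 1.54. Atf4 itself differed by 0.54 (limma adjusted p = 0.0487) and was not called without 4wk_Ctrl replicate 1 (0.0636). Fgf21, a stress hormone of liver, differed by 2.37 (limma adjusted p = 0.0479), also lost without that library (0.0619).

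The promoters of this list were searched for the amino acid response element, the ATF4 site of such genes, written as TGATG, any base, AA, on either strand and in the same windows. A match was found for 8 of the 26 genes in the table (30.8%) against 4.51% of 27025 genes. Psat1 had none in this window. Nupr1 (chr7:126625421-126625720, minus strand) and Trib3 (chr2:152344011-152344310, minus strand) are shown as the matched members with the highest differences. Capitals mark the match on the opposite strand, 110 to 103 bases before the start in Nupr1 and just after the start in Trib3.
Nupr1: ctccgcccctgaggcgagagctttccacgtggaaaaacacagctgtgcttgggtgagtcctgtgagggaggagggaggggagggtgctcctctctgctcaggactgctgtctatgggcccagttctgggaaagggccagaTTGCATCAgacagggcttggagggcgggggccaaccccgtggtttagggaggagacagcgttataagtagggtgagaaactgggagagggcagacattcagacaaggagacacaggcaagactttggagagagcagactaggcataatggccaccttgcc
Trib3: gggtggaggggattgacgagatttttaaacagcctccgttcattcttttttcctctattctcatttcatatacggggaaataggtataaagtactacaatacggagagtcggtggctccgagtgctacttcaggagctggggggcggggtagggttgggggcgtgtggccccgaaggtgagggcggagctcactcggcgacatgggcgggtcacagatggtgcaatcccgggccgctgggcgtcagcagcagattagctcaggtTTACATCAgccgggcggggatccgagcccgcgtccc

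Genes of protein folding were lower. Of 19 tested genes of the unfolded protein response of the endoplasmic reticulum, 18 had the lower MCD effect and 0 the higher (median -0.92), with 18 lowered by MCD and 1, Xbp1, lowered by STAM. The count of lower differences was 13 with total-read scaling and 9 with quantile normalization. Creld2 (NM_029720), a secreted factor induced by folding stress, stood at 6.32, 6.18, 6.56 and 5.79 log2 CPM in CD and 3.91, 3.77, 3.81 and 3.74 in MCD. It was 4.63, 4.52, 5.88, 5.39 and 4.51 in 4wk_Ctrl and 4.84, 5.62, 4.92, 4.86 and 4.89 in 4wk_STAM, and differed by -2.45 (SE 0.36, limma adjusted p = 8.73e-05). Sdf2l1, a partner of the chaperone BiP, differed by -2.60. Syvn1 and Herpud1, which remove misfolded proteins, differed by -1.97 and -1.84. Hspa5, which encodes BiP, differed by -0.87 (limma adjusted p = 0.0395).

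Among 31 genes that handle methionine and choline, 2 had the higher and 7 the lower MCD effect (median -0.34), a share near the 26.1% called over all genes. Mat2a (NM_145569), the extrahepatic form of the enzyme that makes S-adenosylmethionine, stood at 7.03, 7.35, 7.42 and 7.61 log2 CPM in CD and 9.47, 9.50, 9.28 and 9.19 in MCD, against 6.96, 6.42, 6.38, 6.63 and 6.55 in 4wk_Ctrl and 6.95, 6.76, 6.75, 6.77 and 6.79 in 4wk_STAM. The difference was 1.79 (SE 0.17, limma adjusted p = 1.53e-07). Mat1a, the hepatocyte form, differed by 0.69. Nnmt, which uses S-adenosylmethionine to methylate nicotinamide, rose by 1.60 with STAM and was at -0.75 with MCD (difference -2.36). Chpt1, which completes phosphatidylcholine synthesis, differed by -1.23, and Pemt, which methylates phosphatidylethanolamine, by 0.14 without a call. With total-read scaling the counts were 9 higher and 4 lower, and with quantile normalization 5 and 4.

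Of 24 NRF2 targets and glutathione genes, 6 had the higher and 1 the lower MCD effect, a share near the 26.1% called over all genes. Slc7a11 (NM_011990), the cystine importer, stood at -2.61, -3.99, -3.91 and -6.47 log2 CPM in CD and 3.65, 5.52, 3.39 and 5.05 in MCD, and at -3.69, -2.92, -6.25, -4.02 and -6.25 in 4wk_Ctrl and -0.61, -0.66, 0.22, 0.51 and 0.88 in 4wk_STAM. It rose in both arms without overlap, by 8.65 and 4.69. The difference of 3.96 (limma adjusted p = 0.0104) was not called with voom weights (limma adjusted p = 0.220), which also ended the call of the metallothionein gene Mt2 (difference 4.49, then limma adjusted p = 0.0826). Of 16 targets of p53, 8 rose with MCD (23.6% of all genes) and 10 with STAM (6.53% of all genes). In the difference, 2 had the higher and 4 the lower MCD effect, against 26.1% called over all genes. Cdkn1a, the cell cycle inhibitor p21, rose by 2.55 and 2.62, a difference of -0.07 whose 95% interval ran from -1.23 to 1.08. Plk2, a stress-induced kinase, fell by 0.76 with MCD and rose by 0.73 with STAM. Pmaip1, which promotes cell death, rose by 0.94 and 2.07 (difference -1.13), a call lost with total-read scaling (limma adjusted p = 0.0824).

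Markers of lipid-associated macrophages, phagocytes that gather in fatty liver, rose in both models, and most of them more with MCD. Of 19 genes, 12 had the higher MCD effect and 1, Cd9, the lower (median 1.25), against 26.1% called over all genes. MCD raised 17 (23.6% of all genes) and STAM 13 (6.53% of all genes). The summed level of the list was 1488 to 1664 CPM in CD, 2706 to 3196 in MCD, 1157 to 1625 in 4wk_Ctrl and 1578 to 1983 in 4wk_STAM. Cd63 (NM_001042580), a lysosomal membrane protein, stood at 2.50, 1.75, 2.22 and 1.96 log2 CPM in CD and 5.20, 5.94, 5.38 and 6.11 in MCD, and at 4.31, 4.24, 3.59, 4.12 and 4.59 in 4wk_Ctrl and 4.72, 4.92, 4.59, 5.20 and 4.82 in 4wk_STAM. It differed by 2.87 (SE 0.29, limma adjusted p = 9.54e-07). Gpnmb, a glycoprotein of lipid-laden phagocytes, was 169-fold higher in MCD and 19.5-fold in STAM. These folds rest on few control reads, 24 over CD against 7690 over MCD and 14 over 4wk_Ctrl against 374 over 4wk_STAM. The difference of 3.12 for Gpnmb (limma adjusted p = 0.00262) was not called with voom weights (limma adjusted p = 0.376). Atp6v0d2, a proton pump subunit, rose by 3.53 with MCD and was at -0.55 with STAM. Trem2, the lipid receptor of these cells, rose by 3.08 and 1.97 and its difference of 1.11 was not called (limma adjusted p = 0.110).

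Resident Kupffer cell markers differed in 2 of 11 genes, both lower, C6 and Folr2, against 26.1% called over all genes. Folr2, a folate receptor, differed by -0.92 (limma adjusted p = 0.0230), which total-read scaling did not call (limma adjusted p = 0.156), whereas C6 is also among the male-biased genes. Clec4f and Timd4, which define these cells, had differences of -0.48 and -0.37 and no call in any of the 3 comparisons. Of 24 chemokines and cytokines, 5 had the higher MCD effect and 1 the lower, a share near the 26.1% called over all genes. With total-read scaling the counts were 8 and 1, and with quantile normalization 3 and 1. Il1rn, the interleukin 1 receptor antagonist, rose by 2.52 with MCD and was at 0.11 with STAM. Ccl2, which recruits monocytes, rose in both arms, by 2.98 and 1.46. Cxcl2, which recruits neutrophils, had 1 read over the CD livers and 138 over the MCD livers, a ratio of 95.2 (95% counting interval 16.8 to 3787), and its called difference of 3.23 was lost without 4wk_Ctrl replicate 1 (limma adjusted p = 0.0628). Cxcl9, an interferon gamma target, went the other way, at -0.39 with MCD and up by 1.66 with STAM (difference -2.05). The calls of Ccl2 and Ccl7 were lost in several reruns without 1 library, with limma adjusted p up to 0.0603 and 0.0857.

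Against 26.1% over all genes, the difference was called for 2 of 13 cholangiocyte markers, 3 of 13 of sinusoidal endothelium, 0 of 8 of neutrophils and 0 of 7 of B cells. STAM lowered 5 of the 13 sinusoidal genes (2.9% of all genes) and MCD lowered 4 (21.9% of all genes). With total-read scaling STAM lowered 2, while MCD lowered 1 and raised 6. The difference for sinusoidal genes was then higher for 6 and lower for 0, in place of 1 and 2. Krt23 and Prom1 were the cholangiocyte genes (4.33 and 2.86), while Krt19, Krt7 and Epcam were not called. Neutrophil marker levels added up to 14.9 to 25.9 CPM in MCD and 4.44 to 13.0 in CD, and to 5.73 to 23.2 in 4wk_STAM against 4.19 to 20.8 in 4wk_Ctrl. As deposited, MCD lowered 10 of 15 hepatocyte markers and raised 1. It lowered 6 and raised 5 with total-read scaling, and lowered 2 and raised 4 with quantile normalization. The difference was called for 7 of the 15 (6 lower, 1 higher), with Serpina1a at -1.29. With total-read scaling 3 were lower and 2 higher, and quantile normalization gave 2 of each and turned Cps1 and Apoa1 positive without a call. The erythroid list summed to 241 to 322 CPM in CD and 52.7 to 78.7 in MCD, and the heme enzyme gene Alas2 (difference -2.42) was its 1 call. Among pancreatic acinar genes, Prss1, Cpb1, Pnlip, Try4 and Try5 had no read in any of the 18 libraries, while Cela1 differed by -2.13. Amy2a5, an amylase, had 23 reads over the MCD livers and 0 over the CD livers, at least 5.29-fold higher when 3 reads are taken as the limit for the whole CD group. Its difference was called with all libraries (limma adjusted p = 0.0453) but not with quantile normalization or in most reruns without a single library, with limma adjusted p up to 0.0983. The part of these cell types in the other results was not tested.

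Scar matrix genes rose with MCD more often than with 4-week STAM, and the count of called differences depended on 4wk_Ctrl replicate 1. Of 29 genes, 9 had the higher and 2 the lower MCD effect (median 0.88), and 19 and 2 without this library. Over all genes the difference was called for 26.1% and, without this library, for 29.9%. MCD raised 18 and STAM 2, where over all genes MCD raised 23.6% and STAM 6.53%. With total-read scaling 17 had the higher and 2 the lower MCD effect, and MCD raised 27. With quantile normalization 10 were higher and 1 lower, and MCD raised 16. Lum (NM_008524), a proteoglycan of collagen fibrils, stood at 3.82, 3.29, 4.02 and 3.85 log2 CPM in CD and 5.43, 5.65, 5.31 and 5.12 in MCD, and at 4.07, 4.58, 4.74, 4.11 and 4.58 in 4wk_Ctrl and 4.46, 4.67, 4.13, 4.72 and 4.91 in 4wk_STAM. It differed by 1.48 (SE 0.25, limma adjusted p = 0.000195). Lox, which cross-links collagen, differed by 3.05. Col1a1, the main collagen of scars, rose by 1.57 with MCD, and its difference of 1.11 was not called (95% interval -0.54 to 2.76). Timp1, an inhibitor of matrix proteases, rose by 2.86 and 2.82 (difference 0.04, 95% interval -2.08 to 2.17). Col15a1, a basement membrane collagen, went the other way at -2.02. Of 17 stellate cell markers, 6 had the higher MCD effect and 1 the lower, against 26.1% called over all genes. Pdgfra (NM_011058), a growth factor receptor, stood at 3.26, 3.30, 3.47 and 3.47 log2 CPM in CD and 4.96, 5.05, 4.78 and 4.85 in MCD. It was 3.36, 3.67, 3.43, 3.45 and 3.61 in 4wk_Ctrl and 3.27, 3.17, 3.16, 3.54 and 3.34 in 4wk_STAM, a difference of 1.74 (SE 0.14, limma adjusted p = 3.76e-08).

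Cell division and cholesterol synthesis rested most on that library. Of 29 cell division genes, 3 had the higher MCD effect and 1 the lower with all libraries (median 1.89), and 24 and 0 without 4wk_Ctrl replicate 1 (median 2.61). Over all genes, for this list and the cholesterol list alike, these shares were 26.1% and 29.9% in either direction. The list median was 0.06 log2 CPM in this library and 3.67 to 4.33 in the other 4wk_Ctrl livers. Cdk1 (NM_007659), the kinase that starts mitosis, stood at 1.46, 0.06, 1.04 and -0.08 log2 CPM in CD and 2.86, 3.10, 2.28 and 2.70 in MCD. It was 1.37 in 4wk_Ctrl replicate 1, 3.83, 3.86, 4.54 and 4.36 in the other 4 controls and 3.70, 3.66, 3.58, 4.01 and 3.30 in 4wk_STAM. Its difference was 2.06 (limma adjusted p = 0.0460) with all libraries and 2.61 (limma adjusted p = 8.52e-05) without replicate 1, and the first of these calls was lost in most reruns without another library. Ccnd1, cyclin D1, differed by 2.28, and by 2.69 without the library. Of 24 cholesterol genes, 0 had the higher and 2 the lower MCD effect, Tm7sf2 and Ebp, both enzymes of sterol synthesis (-1.51 and -0.92). Without the library 12 were higher and 2 lower, and the number lowered by STAM went from 1 to 18.

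**Figure D5:**
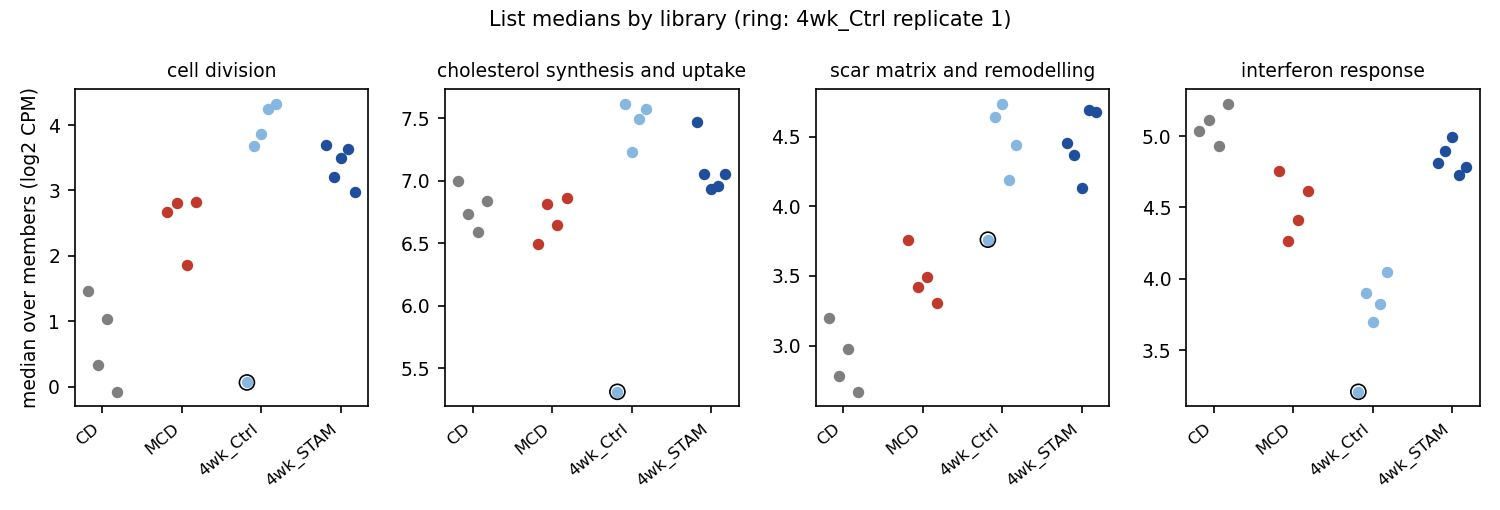
Median level over the members of 4 lists in each library (log2 CPM, 1 point a library, ring on 4wk_Ctrl replicate 1). The ringed library lies below its group in all 4 panels, farthest in cell division, and the interferon panel keeps its order of groups without it.

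Plasma proteins of the acute phase were mostly lower in the difference. Of 22 genes, 13 had the lower MCD effect and 1 the higher (median -0.79), against 26.1% called over all genes. MCD lowered 11 (21.9% of all genes) and STAM raised 8 (6.53% of all genes). Without 4wk_Ctrl replicate 1, 17 were lower and 1 higher in the difference. With total-read scaling 10 were lower and 1 higher, and with quantile normalization 9 and 3. The fall with MCD itself depended on the scaling. MCD lowered 11 and raised 2 as deposited, 8 and 6 with total-read scaling, and 6 and 7 with quantile normalization. Saa1 (NM_009117), serum amyloid A, stood at 5.19, 4.82, 6.88 and 5.41 log2 CPM in CD and 5.38, 3.37, 5.19 and 4.44 in MCD, which overlapped. It was 4.04, 3.35, 3.64, 3.93 and 3.49 in 4wk_Ctrl and 6.23, 6.35, 5.78, 6.13 and 5.91 in 4wk_STAM, and the difference was -3.37 (SE 0.58, limma adjusted p = 0.000487). Saa2 and Orm3 differed by -3.39 and -2.95, likewise through rises with STAM. The fibrinogen genes Fga, Fgb and Fgg fell with MCD and differed by -1.36, -0.91 and -1.40. Apcs, serum amyloid P, was the exception, up by 2.06 with MCD and at -0.26 with STAM.

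Of 15 fetal and tumour-associated genes, 10 rose with MCD (23.6% of all genes) and 9 with STAM (6.53% of all genes). In the difference 4 were higher and 3 lower, 7 of 15 against 26.1% over all genes. Igf2 (NM_001122736, chromosome 7, 142650768 to 142661035), a fetal growth factor, was raised by 4-week STAM and not called with MCD. It stood at -1.45, -1.42, -0.08 and -0.87 log2 CPM in CD, -2.27, -0.61, -0.38 and -1.25 in MCD, -0.75, -0.58, -0.51, -0.75 and -0.40 in 4wk_Ctrl and 6.02, 6.10, 4.68, 4.48 and 6.02 in 4wk_STAM. The rise with STAM was 66.7-fold, and the difference was -6.23 (SE 0.56, limma adjusted p = 1.38e-07). At 10 weeks its STAM effect was 1.0 (limma adjusted p = 0.117). Dlk1, another fetal gene, had 3 reads over 4wk_Ctrl and 43 over 4wk_STAM, a ratio of 12.2 (95% counting interval 3.92 to 61.7). Tff3, a secreted trefoil peptide, rose by 3.17 with STAM (difference -4.82). Afp, alpha-fetoprotein, rose by 2.26 and 2.17 (difference 0.08, 95% interval -1.16 to 1.33). Gpc3, an oncofetal proteoglycan, and Akr1b7, an aldose reductase, rose with MCD and differed by 2.41 and 4.38.

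Genes of glucose metabolism differed in both directions. Of 18 gluconeogenic and insulin-suppressed genes, 3 had the higher and 5 the lower MCD effect, and of 19 glycolytic genes 2 and 6, against 26.1% called in either direction over all genes. With total-read scaling these counts were 3 and 2, and 4 and 2. Khk, which phosphorylates fructose, differed by -1.70 (SE 0.23, limma adjusted p = 2.04e-05). Fbp1, a gluconeogenic phosphatase, fell by 0.39 with MCD and rose by 0.41 with STAM, and Pcx, pyruvate carboxylase, differed by -1.01. With quantile normalization 0 of the gluconeogenic genes were lower, Fbp1 and Pcx included (limma adjusted p = 0.109 and 0.0968).

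Some of the largest differences lay outside the pathway lists. Slc22a27, an organic anion carrier, differed by 7.64 (SE 0.46, limma adjusted p = 8.82e-09) and was 161-fold higher in MCD. Slc16a5, a monocarboxylate carrier, differed by 6.13. Among the male-biased genes, Selenbp2, a selenium-binding protein, differed by -6.26, with CD at 8.45 to 10.05 log2 CPM, MCD at 2.80 to 4.58, 4wk_Ctrl at 5.49 to 8.10 and 4wk_STAM at 6.82 to 8.44.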

How the data were processed

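Liver RNA of the 18 libraries was sequenced as stranded, paired-end mRNA libraries. The authors deposited 1 table per study of log2 CPM values for 20416 genes, and the values themselves show a prior of about 0.25 reads and a scaling of libraries made separately in each table. Reads were aligned with STAR 2.4.2a to mm10, per the submitters' processing notes, and a counting tool was not given in the sources used here. Whole reads could be recovered from the deposited log2 values for 100% of values, within 0.05 reads.

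Values were fitted with limma 3.58.1 (R 4.3.3, statmod 1.5.0) using trended, robust variances, in 1 model of 4 group means. Genes had to lie above the 25th percentile of row mean in both tables. P-values are two-sided and Benjamini-Hochberg adjusted over 14962 genes, and a call is an adjusted p under 0.05. The code was tested on simulated data. The 10-week effect was fitted alone. Ratios of few reads carry 95% intervals for counting error only.

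Genes named by rule had to be called with and without 4wk_Ctrl replicate 1. They were the 8 highest and 8 lowest differences above the median level, up to 6 opposite genes in each direction, 4 members of each list and the gene with alike effects. Other members were named after their values were seen. The comparison, lists and motifs were chosen with earlier results of these data known. Alternatives covered scaling, the prior, voom weights on the recovered reads, filters, robust variances, a replicate block and leaving out each library. Some members of the lists are counted but not reported by name here.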

Additional observations from a re-analysis of the deposited data

Results flagged for a closer look

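Some values of named genes lay far from the rest of their group by Dixon's test. Of 468 pairs of a gene and a group, 20 held such a library, where chance alone gives about 1 in 20, and 7 of them were in 4wk_Ctrl replicate 1. Scd1 stood at 10.96 log2 CPM in 4wk_Ctrl replicate 1, against 13.95 to 14.40 in the others. Ildr2 stood there at 6.88, against 6.07 to 6.25 in the others. Ccnd1 stood there at 4.95, against 6.77 to 7.15 in the others. Cdk1 stood there at 1.37, against 3.83 to 4.54 in the others. Mcm2 stood there at 1.41, against 3.77 to 4.15 in the others. Tm7sf2 stood there at 5.31, against 6.66 to 6.92 in the others. Serpina1a stood there at 12.85, against 12.58 to 12.65 in the others. Mup10 stood at 10.09 log2 CPM in CD replicate 4, against 9.53 to 9.57 in the others. Atp6v0d2 stood at 2.34 log2 CPM in CD replicate 2, against 1.53 to 1.66 in the others. Lpl stood at 8.50 log2 CPM in 4wk_STAM replicate 1, against 8.01 to 8.15 in the others. Mat2a stood there at 6.95, against 6.75 to 6.79 in the others. Folr2 stood at 4.30 log2 CPM in CD replicate 3, against 3.78 to 3.86 in the others. Cidec stood there at 0.42, against -1.06 to -0.92 in the others. Trp53inp1 stood there at 6.63, against 5.92 to 6.03 in the others. Dcn stood at 8.36 log2 CPM in MCD replicate 4, against 8.75 to 8.79 in the others. 5830473C10Rik stood there at 5.27, against 5.46 to 5.50 in the others. Cyp39a1 stood at 4.23 log2 CPM in CD replicate 1, against 5.04 to 5.16 in the others. Creld2 stood at 5.62 log2 CPM in 4wk_STAM replicate 2, against 4.84 to 4.92 in the others. Nnmt stood at 4.19 log2 CPM in 4wk_Ctrl replicate 5, against 4.83 to 4.92 in the others. Amy2a5 stood at -3.78 log2 CPM in 4wk_Ctrl replicate 2, and -6.25 in each of the others.

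The models moved 181 genes in opposite directions, with both effects and the difference called with limma. MCD raised and STAM lowered 43 of them, and MCD lowered and STAM raised 138.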

How the results depend on the processing

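The count of called differences was 3906 and stayed between 3513 and 4469 when single libraries were left out, with 1549 to 2125 higher and 1930 to 2344 lower. MCD calls ranged from 6128 to 7258, STAM calls from 1036 to 1520, genes up with MCD and down with STAM from 21 to 66, and the reverse from 114 to 146. With total-read scaling 4631 were genes with a higher MCD effect and 1005 genes with a lower MCD effect. A replicate block gave 3048 called differences, 894 STAM calls and 22 genes up with MCD and down with STAM. Deviations from the group means correlated between -0.135 and 0.005 for same-numbered libraries and between -0.137 and 0.119 for others. These values gave no sign of pairing by number, but with so few libraries they cannot exclude it. Of the named genes' values under the alternatives, 2906 kept direction and call, 113 lost the call and 3 changed sign: Cps1 (0.10) and Apoa1 (0.44) with quantile normalization and Clec4g (0.020) with total-read scaling. The cause was not tested. The median standard error of a difference was 0.22. Differences of that size, and many somewhat larger ones, are not resolved at this depth and number of libraries.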
